A study of Mus musculus with 6 samples.

Results

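The antioxidant and Nrf2 response genes described here are 10 genes of mouse subependymal cells, chosen by name from the 32564 genes measured: Nfe2l2, Hmox1, Nqo1, Gclc, Gclm, Gpx1, Gpx4, Sod1, Sod2 and Cat. For each, the estimated counts and the levels per length of all its transcripts were summed. All 10 passed the filter on low counts and were tested. The samples were 6 RNA-seq libraries of cells sorted by flow cytometry from the subependymal zone, the stem cell niche beside the lateral ventricles, and labelled as quiescent neural stem cells. Every mouse was 3 months old, of the strain given as C56BL/6J, and carried gfap:GFP, green fluorescent protein under the promoter of Gfap, a gene of astrocytes as well as of these stem cells. The vehicle group (3 libraries) had received aCSF, artificial cerebrospinal fluid, into the ventricles 3 days before the cells were taken. The antagomir group (3 libraries) had received, by the same route and 3 days before, an oligonucleotide directed against the microRNA miR-204. The labels name no control oligonucleotide, and their treatment protocol names the antagomir for all 6 libraries, so groups follow the titles and treatment group labels. Nothing in the labels says that replicates came from separate animals or pools, and the p-values therefore cover the variation among these 6 libraries, part of which may be technical.

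Nrf2, the protein made from Nfe2l2, is a transcription factor that is held in the cytoplasm and degraded through its partner Keap1 until oxidants or electrophiles modify Keap1. It then enters the nucleus, pairs with small Maf proteins and binds antioxidant response elements near genes of glutathione synthesis, quinone reduction and haem breakdown. Much of this control acts on the protein, so the transcript level of Nfe2l2 need not follow its activity. The superoxide dismutases, catalase and the glutathione peroxidases Gpx1 and Gpx4 remove superoxide and peroxides, and several of them are expressed in most cells without induction. In the brain, astrocytes are known for a high content of glutathione.

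miR-204 pairs with its targets through bases 2 to 8, its seed, so the sequence is shown with the seed in capitals (RefSeq, GRCm38.p6, chr19:22750610-22750631, plus strand). It is the molecule the antagomir was directed against.
miR-204-5p: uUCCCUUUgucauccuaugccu

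The DNA letters opposite the seed, AAAGGGA, were searched on the transcript strand in the annotated 3′ UTRs (GENCODE M21, GRCm38) of 18 coding transcripts of the 10 genes. None of the 10 genes held a match. Over the 13808 protein-coding genes tested whose most abundant coding transcript had a 3′ UTR, 13.5% held one. In the most abundant coding transcript, the 3′ UTR had a median length of 880.5 bases over those genes and 509 bases over the 10 genes, from 38 bases in Gclm to 4963 bases in Sod2. A missing match says only that these letters are not in these windows.

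The core of the antioxidant response element, TGACNNNGC, was searched on both strands of RefSeq promoter windows running from 250 bases before to 50 bases after each start site. The table held such windows for 8 of the 10 genes, all but Hmox1 and Gclc. Nfe2l2, Gclm and Sod1 held a match, against 14.0% of the 27025 genes in the table. The matches are shown on the strand on which the motif reads forward, with the motif in capitals and GRCm38.p6 coordinates. They were centred 236, 130 and 52 bases before the start sites of Nfe2l2, Gclm and Sod1.
Nfe2l2, chr2:75704887-75704911, minus strand: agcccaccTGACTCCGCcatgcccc
Gclm, chr3:122245415-122245439, minus strand: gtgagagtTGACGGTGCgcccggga
Sod1, chr16:90220698-90220722, minus strand: cctgagtcTGACCACGCccaccttg
The motif shares its first 4 letters, TGAC, with the AP-1 motif TGACTCA. In Nfe2l2 the match lay on the strand of the gene, and in Gclm and Sod1 on the opposite strand. A match is a description of the sequence, and binding was not measured here.

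Libraries held 14866453 to 19694409 estimated counts and 17205 to 17993 genes with at least 1 count. Levels in CPM (counts scaled to library size) compare libraries, and levels in TPM (counts per transcript length, scaled to the same total) compare genes. Defining genes of astrocytes and stem cells were abundant, with Gja1 at 2127 to 2989 CPM and Slc1a3 at 1592 to 2775 CPM. Genes of other cell types were detected too: 10 oligodendrocyte genes summed to 9690 to 22010 CPM. The 16 microglia and macrophage genes summed to 2736 CPM in vehicle replicate 1 and to 199.9 to 431.2 CPM in the other 5 libraries, so vehicle replicate 1 stood apart. Antagomir replicate 1 stood apart as well, with a chi-square per gene of 56.4 to 98.6 against each other library, the lowest ependymal sum (1340 CPM) and the highest neuroblast and neuron sum (1735 CPM). Vehicle replicate 1 lay at 56.4 to 67.2 by the same measure, and the remaining 4 libraries at 23.6 to 45.9 among themselves. Endothelial genes (7) summed to 150.4 to 234.2 CPM, of which the transporter gene Slco1c1 held 138.5 to 225.6 CPM. The junction genes Cldn5 and Cdh5 reached at most 0.978 and 0.283 CPM, and Pecam1 4.59 to 10.03 CPM. Choroid plexus genes (6) summed to 60.7 to 138.9 CPM, nearly all from Clic6, Folr1 and Otx2, while Ttr, the defining gene of that epithelium, reached at most 1.28 CPM. Cldn5, Cdh5, Otx2 and Ttr are named here after their values were seen. None of the cell type lists had a gene at 0 counts in all 6 libraries. In bulk libraries, fewer cells of a type and less RNA per cell cannot be told apart.

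On the TPM scale, Gpx4 was the highest of the 10 genes in every library, at 692.0 to 889.2 TPM, and held 42.4 to 47.4% of their summed TPM. Gpx4 encodes the selenoprotein that reduces lipid peroxides in membranes and so guards against ferroptosis. Gpx1 (223.5 to 321.5 TPM), the cytosolic peroxidase, and Gclm (192.0 to 267.3 TPM), the modifier subunit of the enzyme that starts glutathione synthesis, followed. Their ranges overlapped, and Gpx1 was above Gclm in 3 of 6 libraries. Cat measured 130.2 to 160.4 TPM, Sod1 107.2 to 149.1 TPM and Gclc 80.97 to 130.2 TPM. Cat exceeded Sod1 in 6 of 6 libraries although the ranges overlapped, and Sod1 exceeded Gclc in 4 of 6. Nfe2l2 (50.7 to 68.8 TPM) and Sod2 (53.2 to 62.4 TPM) could not be ordered, each being higher in 3 libraries. Nqo1 measured 28.2 to 39.4 TPM and Hmox1 6.21 to 37.1 TPM, and Hmox1 was the lowest in 5 of 6 libraries. Nqo1 and Hmox1, both commonly used as readouts of Nrf2 activity, thus had the lowest mean levels of the 10 genes, and the peroxidases Gpx4 and Gpx1 the highest. Gclm and Gclc, of glutathione synthesis and so also of the groups named above as bound by Nrf2, ranked 3 and 6. Their means were 228.5 and 107.8 TPM, so a low summed level was not common to genes of those groups. For Gclm this depended on short transcript models: its longest, of 5589 bases, alone measured 27.7 to 40.9 TPM, close to Nqo1. The level of Gclc came from 1 transcript model.

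**Figure D1:**
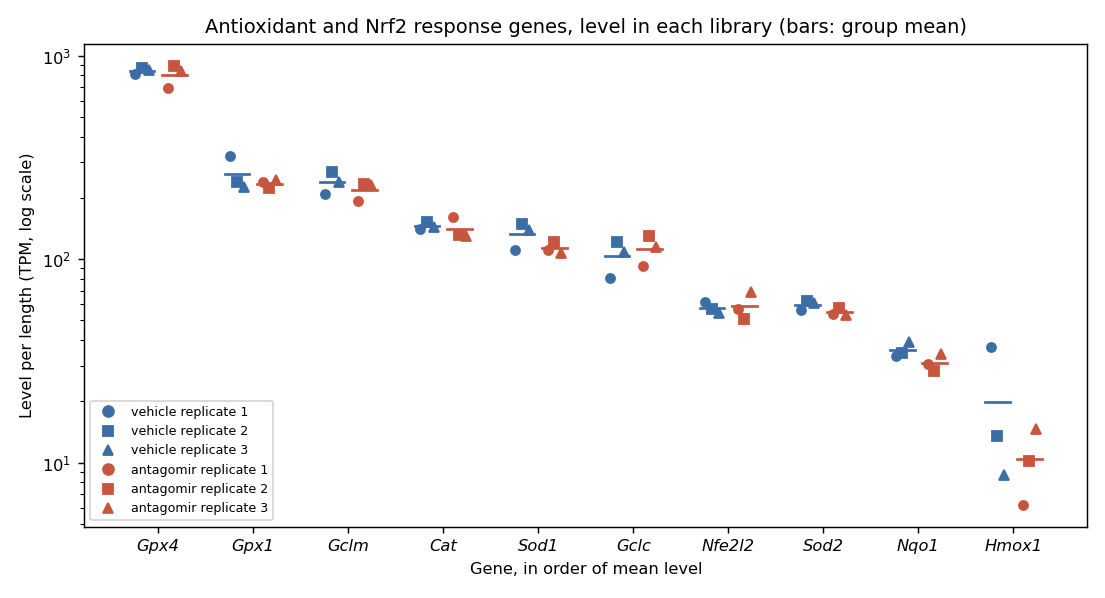
Level per length (TPM, log scale) of the 10 genes in each library, ordered by mean level, with vehicle in blue, antagomir in red, symbols for the replicates and bars for group means. Gpx4 lies above all others in every library, and the spread is widest for Hmox1, from 6.21 to 37.1 TPM.

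Antagomir libraries were then compared with vehicle libraries, gene by gene. None of the 10 genes passed the quasi-likelihood test of edgeR after Benjamini-Hochberg adjustment over 15012 genes, where 0.0% of all genes passed. The lowest adjusted p was 0.949 among the 10 genes and over all genes, and 0 of the 10 lay under an unadjusted p of 0.05 against 4.1% of all genes. DESeq2 and limma called 0 of the 10 as well. Of the 10 log2 fold changes 9 were negative, with a median of -0.16, where 50.9% of all genes were negative with a median of -0.0062. Leaving out vehicle replicate 1 gave a median over the 10 genes of -0.155, leaving out antagomir replicate 1 gave -0.193, and 0 of the 10 were called in either case. Astrocyte and stem cell genes were negative in 12 of 14 (median -0.20), ependymal genes in 7 of 7 (median -0.25) and oligodendrocyte genes in 0 of 10 (median 0.29). Microglia and macrophage genes were negative in 15 of 16 (median -1.94), and neuroblast and neuron genes in 1 of 9 (median 0.347). Without vehicle replicate 1 these medians were, in the same order, -0.19, -0.34, 0.05, -0.02 and 1.035. The part of these cell types in the values of the 10 genes was not tested. In CPM the groups did not overlap for 2 of the 10, Nqo1 and Sod2, both lower with the antagomir, against 5.44% of all genes on that side and 10.5% in either direction. On the TPM scale 0 of the 10 were free of overlap, against 3.7% of all genes on the lower and 7.05% on the higher side. For the 9 genes other than Hmox1, the 95% intervals of the fold ran from 0.603 at the lowest bound to 1.41 at the highest, so changes of 2-fold in either direction lay outside each of these intervals.

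**Figure D2:**
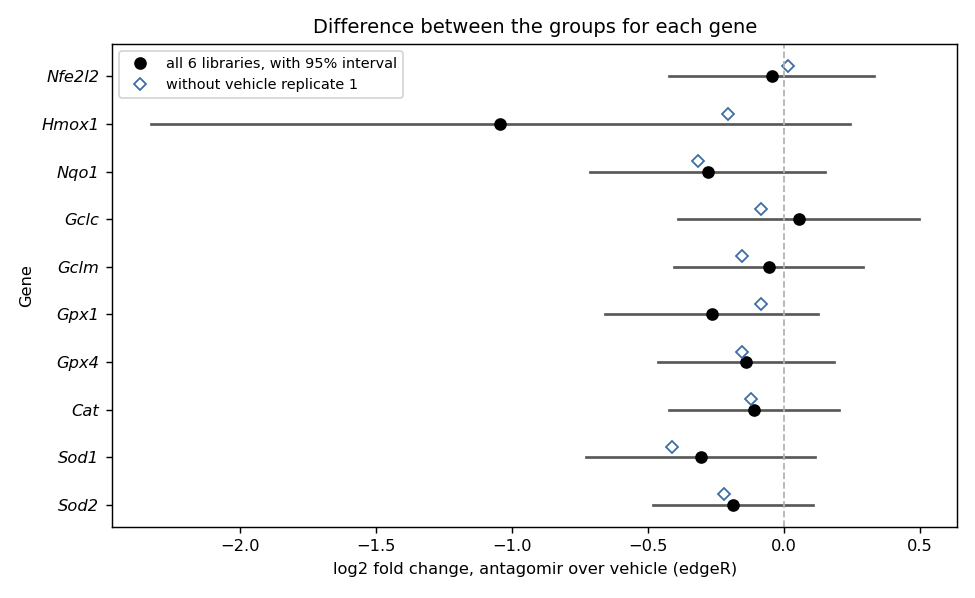
edgeR log2 fold change of antagomir over vehicle for each gene, with black points and lines for all 6 libraries and their 95% intervals, and open diamonds for the fit without vehicle replicate 1. All 10 intervals include 0, and Hmox1 moves from -1.04 to -0.21 when vehicle replicate 1 is left out.

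Nfe2l2, the regulator itself (ENSMUSG00000015839.6, chromosome 2, 75675513 to 75704641 in GRCm38), measured 87.9, 79.9 and 77.8 CPM in vehicle replicates 1 to 3. In antagomir replicates 1 to 3 it measured 76.8, 67.4 and 93.7 CPM. The antagomir libraries thus held both the highest and the lowest level, and the vehicle libraries lay between them. The log2 fold change was -0.05 (SE 0.16, 95% interval -0.42 to 0.33, edgeR adjusted p = 0.984), and its sign turned to 0.016 without vehicle replicate 1 and 0.063 without antagomir replicate 2. Among 10551 genes with a mean of at least 10 CPM, those whose log2 CPM was most like that of Nfe2l2 over the 6 libraries were Dnajb9, a co-chaperone of the endoplasmic reticulum (Pearson r = 0.985), Mmp15, a membrane metalloprotease (r = 0.973), and Prss56, a serine protease (r = 0.966). These are descriptions over 6 libraries, picked as the closest of many genes.

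Hmox1 encodes haem oxygenase 1, the inducible enzyme that splits haem and is abundant in macrophages that clear red cells (ENSMUSG00000005413.8, chromosome 8, 75093621 to 75100589). It measured 32.25, 11.55 and 7.76 CPM in vehicle replicates 1 to 3, and 5.17, 8.09 and 11.7 CPM in antagomir replicates 1 to 3. A single library, vehicle replicate 1, was high, and antagomir replicate 3 lay above the other 2 vehicle libraries. The group means were 17.2 ± 13.2 and 8.33 ± 3.29 CPM (SD, n = 3 each), with a log2 fold change of -1.04 (SE 0.56, 95% interval -2.33 to 0.24, edgeR adjusted p = 0.949). Without vehicle replicate 1 the log2 fold change was -0.21. The lowest count behind these values was 85, in antagomir replicate 1.

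The level of Hmox1 followed that of microglia and macrophage genes from library to library. The 16 genes of that list summed to 2736, 403.8 and 252.9 CPM in vehicle replicates 1 to 3 and to 199.9, 279.1 and 431.2 CPM in antagomir replicates 1 to 3, and the order of the 6 libraries was the same for this sum as for Hmox1. Of the 16, 15 were lower with the antagomir and 6 lay under an unadjusted p of 0.05, with 0 called by edgeR, against 50.9% of all genes negative and 1.93% under that p on the lower side. The list's median was -1.94, and -0.02 without vehicle replicate 1. Among them Csf1r, the receptor gene on which microglia depend for survival, reached 595.5 CPM in vehicle replicate 1, against at most 96.5 CPM elsewhere. The sum of 9 red cell and leukocyte genes was highest in vehicle replicate 1 as well (915.1 CPM) but lowest in antagomir replicate 3 (17.1 CPM), where Hmox1 was second highest. Most of that sum was haemoglobin, with Hba-a1 at 412.8 and Hbb-bs at 346.7 CPM in vehicle replicate 1. The leukocyte gene Ptprc, named here after its values were seen, measured 12.3, 1.89 and 1.98 CPM with vehicle. With the antagomir it measured 2.92, 4.08 and 3.68 CPM, so Ptprc was not lowest in antagomir replicate 3. In antagomir replicate 1, where Hmox1 was lowest, Ptprc lay above vehicle replicates 2 and 3. The leukocyte genes S100a8 and S100a9 of the same list, also named after their values were seen, reached at most 0.562 and 1.204 CPM. Both measured 0.0 CPM in antagomir replicate 3. The part of these cells in the level of Hmox1 was not tested. The closest genes to Hmox1 in pattern were Dock2, a signalling protein of leukocytes (r = 0.993), the lysosomal disease gene Cln6 (r = 0.993) and Nfkbia, the inhibitor of NF-kappa-B (r = 0.988). These too are descriptions over 6 libraries, picked as the closest of 10551 genes, and vehicle replicate 1 was highest for each of them. Dock2 ranged from 26.9 to 50.3 CPM, a narrower range than that of Csf1r.

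**Figure D3:**
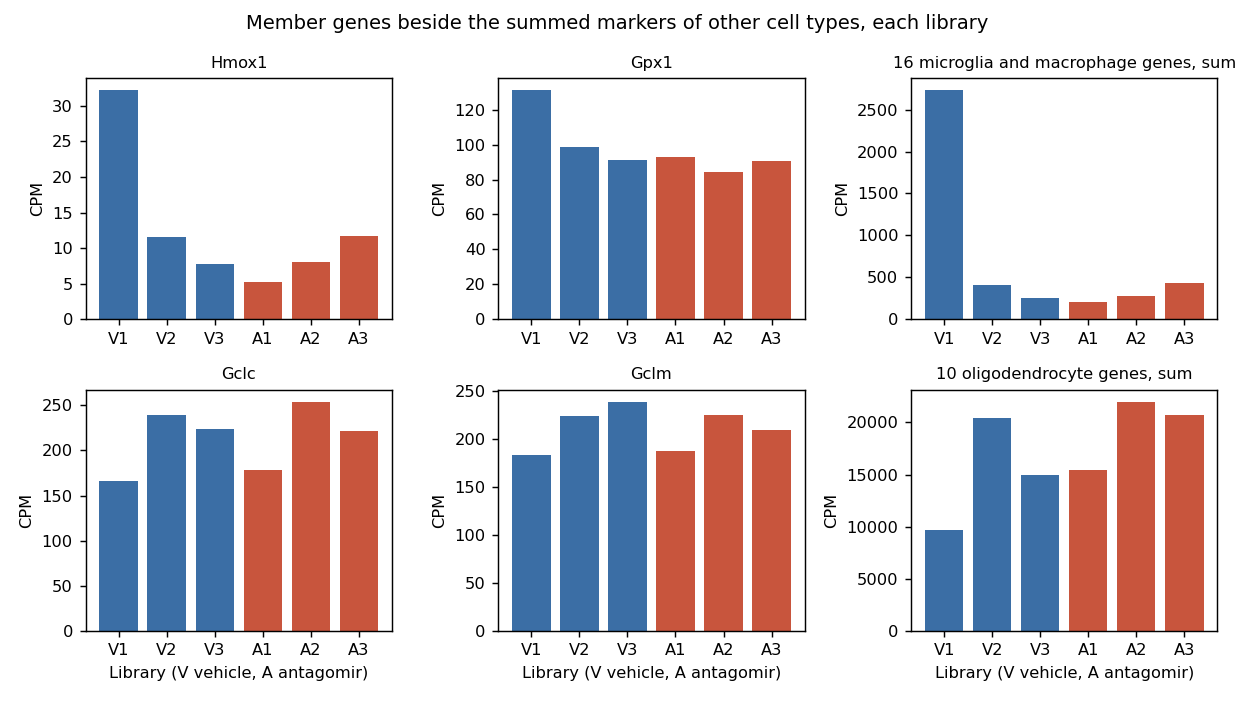
CPM of Hmox1, Gpx1, Gclc and Gclm in each library beside the summed CPM of 16 microglia and macrophage genes and of 10 oligodendrocyte genes, with vehicle bars (V1 to V3) in blue and antagomir bars (A1 to A3) in red. V1 is highest for Hmox1 (32.25 CPM), Gpx1 (131.4 CPM) and the microglia sum (2736 CPM), and lowest for Gclc (166.1 CPM) and the oligodendrocyte sum (9690 CPM).

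Nqo1, the quinone reductase that is a classical Nrf2 target (ENSMUSG00000003849.8, chromosome 8, 107388225 to 107403206), measured 29.1, 29.3 and 34.65 CPM with vehicle. With the antagomir it measured 24.98, 23.3 and 28.2 CPM. Every antagomir library was below every vehicle library, by a narrow margin, and in TPM antagomir replicate 3 (34.2 TPM) lay above vehicle replicate 1 (33.4 TPM). The log2 fold change was -0.28 (SE 0.19, 95% interval -0.71 to 0.15, edgeR adjusted p = 0.949).

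Gclc and Gclm encode the catalytic and the modifier subunit of glutamate-cysteine ligase, which makes the first intermediate of glutathione. Gclc (ENSMUSG00000032350.9, chromosome 9, 77754535 to 77794485) measured 166.1, 239.8 and 224.2 CPM with vehicle and 178.4, 254.2 and 221.2 CPM with the antagomir. Gclm (ENSMUSG00000028124.15, chromosome 3, 122245557 to 122270732) measured 183.7, 223.8 and 239.0 CPM with vehicle and 187.2, 224.7 and 209.5 CPM with the antagomir. Both genes were lowest in vehicle replicate 1 and antagomir replicate 1, so the groups overlapped throughout. The log2 fold changes were 0.05 for Gclc (95% interval -0.39 to 0.50) and -0.06 for Gclm (-0.41 to 0.29), and each changed sign with the library left out. Gclc turned to -0.085 and -0.065 without vehicle replicate 1 and antagomir replicate 2, and Gclm to 0.033 and 0.008 without vehicle replicate 3 and antagomir replicate 1.

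Oligodendrocyte genes stood lowest in vehicle replicate 1 too, with the 10 genes summing to 9690, 20420 and 15000 CPM in vehicle replicates 1 to 3. In antagomir replicates 1 to 3 they summed to 15460, 22010 and 20730 CPM, and antagomir replicate 2 was highest for this sum and for Gclc. Gclm, however, was highest in vehicle replicate 3 (239.0 CPM), where this sum was second lowest. The 7 ependymal genes summed to 1922, 2379 and 2486 CPM in vehicle replicates 1 to 3. In antagomir replicates 1 to 3 they summed to 1340, 2242 and 2160 CPM. The ependymal sum was thus lowest in replicate 1 of each group, as were Gclc and Gclm. The part of either cell type in the levels of Gclc and Gclm was not tested. Per length, summed Gclm exceeded Gclc 1.79 to 2.57 times in TPM. That ratio depended on short transcript models: the longest, of 5589 bases, alone measured 0.297 to 0.386 times the TPM of Gclc.

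Gpx1 reduces hydrogen peroxide and soluble peroxides with glutathione (ENSMUSG00000063856.7, chromosome 9, 108338903 to 108340343). It measured 131.4, 98.6 and 91.4 CPM with vehicle and 92.7, 84.2 and 90.45 CPM with the antagomir. As for Hmox1, vehicle replicate 1 was the high library, while vehicle replicate 3 lay within the antagomir range and vehicle replicate 2 above it. The log2 fold change was -0.27 (SE 0.17, 95% interval -0.66 to 0.13, edgeR adjusted p = 0.949), and without vehicle replicate 1 it was -0.085. Gpx4 (ENSMUSG00000075706.10, chromosome 10, 80047166 to 80056439) measured 326.1, 337.5 and 346.1 CPM with vehicle and 261.4, 337.7 and 317.9 CPM with the antagomir. Antagomir replicates 1 and 3 were below every vehicle library, replicate 1 by far the most, and replicate 2 lay among them. The log2 fold change of -0.14 (95% interval -0.46 to 0.18) was -0.041 without antagomir replicate 1.

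Cat encodes catalase, the peroxisomal enzyme that breaks down hydrogen peroxide (ENSMUSG00000027187.10, chromosome 2, 103453849 to 103485160). It measured 215.7, 225.8 and 223.6 CPM with vehicle and 232.8, 193.4 and 189.4 CPM with the antagomir. The vehicle libraries lay close together, and the antagomir libraries lay on both sides of them. The log2 fold change was -0.11 (95% interval -0.42 to 0.20, edgeR adjusted p = 0.953), and it was -0.215 without antagomir replicate 1.

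Sod1, the copper-zinc superoxide dismutase of the cytosol (ENSMUSG00000022982.10, chromosome 16, 90220754 to 90226329), measured 33.4, 43.7 and 42.2 CPM with vehicle. With the antagomir it measured 31.55, 34.4 and 30.55 CPM. The groups overlapped only through vehicle replicate 1, which lay below antagomir replicate 2, and the log2 fold change was -0.31 (SE 0.18, 95% interval -0.73 to 0.12, edgeR adjusted p = 0.949). Without vehicle replicate 1 the log2 fold change was -0.41 (edgeR adjusted p = 0.695). The gene overlaps the antisense gene Scaf4 in position but shares 0 exon bases with it, and the library kit does not mark strand.

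Sod2, the manganese superoxide dismutase of mitochondria (ENSMUSG00000006818.5, chromosome 17, 13006846 to 13040063), measured 128.9, 139.0 and 141.2 CPM with vehicle and 116.4, 126.8 and 115.8 CPM with the antagomir. Every antagomir library was below every vehicle library in CPM. In TPM, antagomir replicate 2 (57.8 TPM) lay above vehicle replicate 1 (56.0 TPM). The log2 fold change was -0.19 (SE 0.13, 95% interval -0.48 to 0.11, edgeR adjusted p = 0.949), within a range of -0.225 to -0.152 as each library was left out. The files hold a Sod2 transcript of 3824 bases, and the annotation used for its 3′ UTR one of 5861 bases. The TPM of Sod1 was 1.99 to 2.39 times that of Sod2 in all 6 libraries.

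Spread differed between the genes. Over the 6 libraries the coefficient of variation in CPM was 77.3% for Hmox1 and 8.41 to 17.3% for the other 9, with a median of 12.7% over the 10 genes. Over all genes tested, which include many at lower levels, the median was 23.1%.

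The files hold 28 transcripts of the 10 genes, of which 22 could be tested on their own. None was called by edgeR over 40212 transcripts, where 0.0% of all passed, and the lowest adjusted p was 0.9999. None of the 22 had an unadjusted p under 0.05, against 2.44% of all transcripts. In 7 genes 1 transcript alone reached 10% of the summed TPM, while Gclm, Gpx1 and Gpx4 had several. In Gpx4, a coding model of 735 bases held 66.3% of Gpx4 TPM with vehicle and 63.3% with the antagomir. The 995-base model of Gpx4 measured 122.0, 127.5 and 133.8 TPM with vehicle and 68.4, 137.3 and 111.4 TPM with the antagomir, so antagomir replicate 1 was the low library here too. The 959-base model of Gpx4 measured 138.5 ± 10.4 and 163.4 ± 12.8 TPM (SD, n = 3 each), with a log2 fold change of 0.19 (95% interval -0.14 to 0.53).

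Gpx1 was divided between coding models of 653 bases (59.4% with vehicle, 62.9% with the antagomir) and 1072 bases (39.2% and 35.3%). The longer of them measured 124.3, 104.3 and 80.1 TPM with vehicle and 95.05, 75.2 and 78.8 TPM with the antagomir, which overlapped. Gclm was spread over coding models of 1002 bases (41.7% and 41.9%), 1088 bases (19.2% and 20.4%) and 5589 bases (14.6% and 17.3%), and a processed transcript of 762 bases (18.3% and 17.4%). Short models of a gene share most of their sequence with longer ones, so these shares are model estimates, whose own error was not analysed here. Gclm also shares 244 of its 6291 exon bases with a pseudogene, Gm6061, which had 13 to 35 counts per library.

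**Figure D4:**
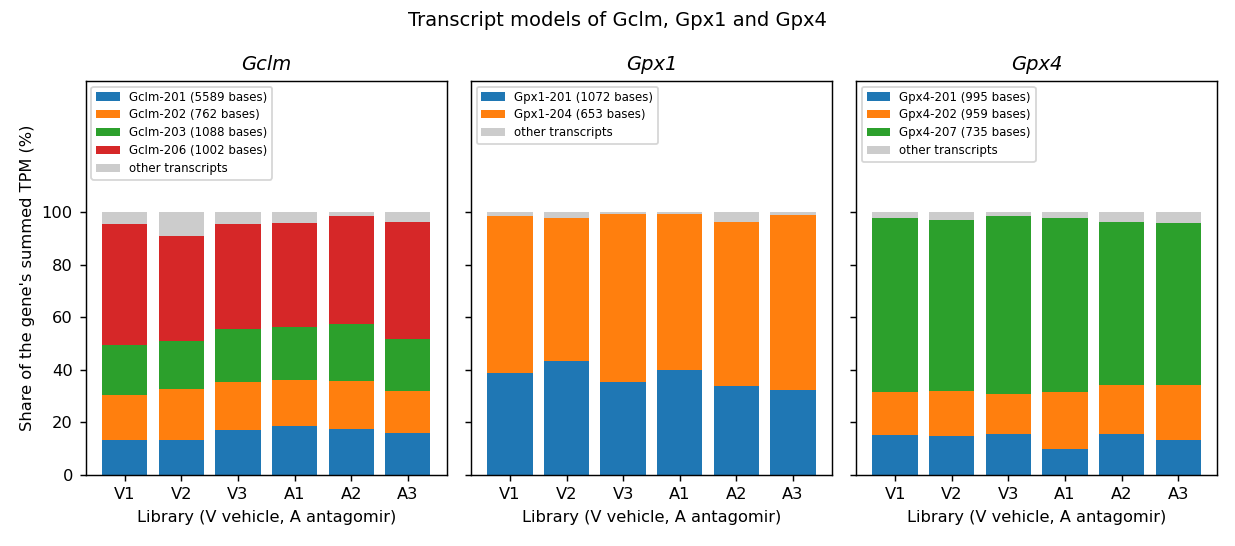
Share of the summed TPM of Gclm, Gpx1 and Gpx4 held by each transcript model with at least 10% in either group, in each library, with the remaining transcripts in grey. The model with the largest share is the same in all 6 libraries: that of 1002 bases for Gclm, 653 bases for Gpx1 and 735 bases for Gpx4.

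Other genes of the pathway were read from 7 lists with 84 genes, of which 79 were tested. None passed edgeR's test, against 0.0% of all genes, and 4 lay under an unadjusted p of 0.05, lower for Mgst1 and Gpx3 (1.93% of all genes) and higher for Slc1a1 and Txnrd3 (2.18%). The groups did not overlap in CPM for 6 on the lower side and 3 on the higher side, against 5.44% and 5.08% of all genes. Their fold changes were positive in 38 and negative in 41, with a median of -0.01. Of the 15 regulators and partners of Nrf2, 10 were higher and 5 lower (median log2 fold change 0.10), and 0 lay under an unadjusted p of 0.05. Keap1, the adaptor that marks Nrf2 for degradation and named here after its values were seen, measured 91.3, 100.5 and 64.7 CPM with vehicle and 86.9, 87.6 and 83.6 CPM with the antagomir. Bach2, a repressor at related DNA elements, measured 13.9 ± 4.84 and 21.0 ± 7.11 CPM, and the related factor Nfe2l1 139.7 ± 38.7 and 168.9 ± 19.2 CPM (SD, n = 3 each), with overlapping groups.

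Genes of glutathione synthesis, recycling and transport were split evenly, with 10 of 20 higher and 10 lower (median -0.01). Slc1a1, a transporter of glutamate and cysteine in neurons, measured 8.37, 2.26 and 2.74 CPM with vehicle and 13.8, 15.0 and 18.6 CPM with the antagomir. Those groups did not overlap, and the log2 fold change was 1.83 (unadjusted p = 0.00785, edgeR adjusted p = 0.949). Neuroblast and neuron genes summed to 1222, 559.6 and 634.4 CPM with vehicle and 1735, 876.1 and 812.2 CPM with the antagomir. Among antagomir libraries this sum was highest in replicate 1, where Slc1a1 was lowest, and lowest in replicate 3, where Slc1a1 was highest. The part of these cells in the level of Slc1a1 was not tested. Mgst1, a microsomal glutathione transferase, measured 112.2 ± 7.23 and 85.0 ± 11.7 CPM, again without overlap (log2 fold change -0.40, unadjusted p = 0.0295).

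The list of other glutathione peroxidases and superoxide dismutase genes, with the copper chaperone Ccs, had 4 of 5 tested genes lower (median -0.35), among them Ccs at a log2 fold change of -0.013. Gpx3, the secreted peroxidase, measured 68.9, 81.6 and 102.2 CPM with vehicle and 51.1, 67.9 and 61.4 CPM with the antagomir, without overlap (log2 fold change -0.49, unadjusted p = 0.035). In TPM the groups of Gpx3 overlapped, with antagomir replicate 2 (80.5 TPM) above vehicle replicate 1 (77.0 TPM). Sod3 measured 35.8 ± 6.90 and 24.9 ± 4.37 CPM and Gpx8 62.4 ± 11.8 and 48.8 ± 6.05 CPM, both with overlapping groups. Ependymal genes, which summed to 1922 to 2486 CPM with vehicle and 1340 to 2242 CPM with the antagomir, were lower in 7 of 7, and astrocyte and stem cell genes in 12 of 14. Their part in these levels was not tested.

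In the thioredoxin and peroxiredoxin system, which reduces oxidized proteins and peroxides with NADPH, 9 of 17 genes were higher and 8 lower (median 0.02). Txnrd3, a thioredoxin reductase, measured 11.1, 15.6 and 14.9 CPM with vehicle and 21.9, 24.5 and 20.7 CPM with the antagomir, without overlap (log2 fold change 0.69, unadjusted p = 0.0184). Txnrd1, the cytosolic reductase and a known Nrf2 target, measured 105.7 ± 22.5 and 139.6 ± 34.8 CPM, with overlapping groups. In TPM the groups of Txnrd1 did not overlap, by a narrow margin, from a highest vehicle level of 60.7 TPM to a lowest antagomir level of 60.83 TPM. The 9 genes of NADPH supply had a median of -0.01 and the 7 of haem breakdown and iron storage a median of 0.02, with 0 in each under an unadjusted p of 0.05. Hmox2, the constitutive haem oxygenase, measured 52.5 ± 8.58 and 60.7 ± 6.88 CPM, above Hmox1 in every library.

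The list of NADPH oxidase subunits held genes of the enzyme that makes superoxide in phagocytes and also Nox1, Nox4, Duox1 and Duox2. It was lower in 6 of 6 tested genes (median -1.44), with 0 under an unadjusted p of 0.05. Cybb, Nox1, Duox1 and Duox2 were not tested. Nox4, named here after its values were seen, had a log2 fold change of -0.556 and was highest in vehicle replicate 3 (8.73 CPM). Ncf1 measured 33.7, 5.32 and 4.82 CPM with vehicle and 0.304, 5.48 and 6.12 CPM with the antagomir, and vehicle replicate 1 was again the high library. The list's 10 genes summed to 120.6, 47.7 and 56.4 CPM with vehicle and to 37.1, 44.5 and 47.8 CPM with the antagomir, and its median was -0.27 without vehicle replicate 1. The microglia and macrophage median moved from -1.94 to -0.02 when the same library was left out. The part of these cells in the levels of the NADPH oxidase genes was not tested.

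**Figure D5:**
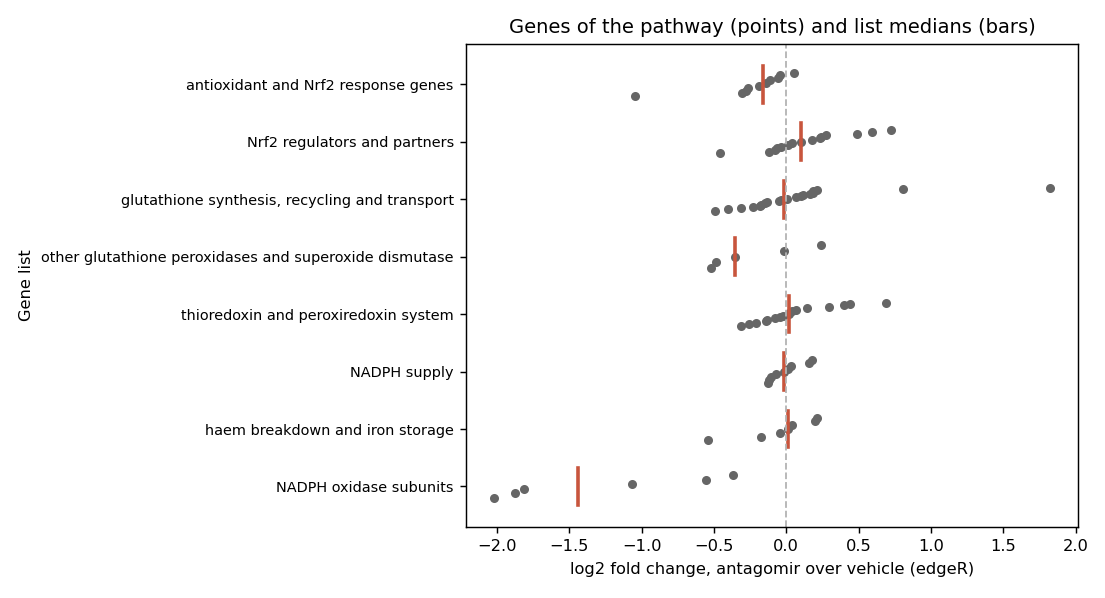
edgeR log2 fold changes of antagomir over vehicle for the tested genes of the 8 antioxidant lists (grey points), with list medians as red bars. The 10 antioxidant and Nrf2 response genes have a median of -0.16, and the NADPH oxidase subunits the lowest of these 8 lists, -1.44.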

How the data were processed

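RNA was measured in 6 libraries of sorted subependymal cells, 3 per group, made with a SMART-Seq v4 kit and read as paired ends, per the labels' protocols. That kit does not mark strand. Per the submitters' processing notes the tools were kallisto and sleuth and the build mm10; their versions are not given in the sources used here. Estimated counts (expected counts) for each transcript were deposited without normalization, per the file headers. The deposited TPM values divide them by effective length and scale each library to the same total, per the file headers. Transcript lengths are also given there.

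Of 99567 transcripts, 98294 (98.7%) matched GENCODE M21 (GRCm38) by identifier. Transcripts that did not match, with 0.524 to 0.586% of counts, were left out. Counts were summed per gene, rounded to whole numbers, and fitted in R 4.3.3 by edgeR 4.0.16 (TMM scaling, filterByExpr with a minimum count of 10, robust quasi-likelihood, group as the only term, all 6 libraries), adjusted over 15012 genes at a threshold of 0.05. Transcripts were fitted alike over 40212. Standard errors and 95% intervals were derived from the F statistics. CPM uses TMM-scaled library sizes. The test was tested on simulated data. Alternatives were other scalings and filters, DESeq2 1.42.0, limma 3.58.1 on log2(TPM + 1), leaving out each library, and the replicate number as a block.

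The 10 genes and all lists were chosen with earlier results of these data known. Beyond the 10, up to 3 genes per pathway list with the smallest p and the 2 most abundant genes of each cell type list were named where they bore on a result, and some of the latter are not reported here. Also named were the 3 genes most like Nfe2l2 and Hmox1, leaving out Gm, Rik and pseudogene names, and transcripts with at least 10% of their gene's TPM. Chi-square per gene between libraries was 23.6 to 98.6, so no pair agreed within sampling noise.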

Additional observations from a re-analysis of the deposited data

How the results depend on the processing

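No alternative called any of the 10 genes, and no transcript was called. Only without vehicle replicate 3 did 1 of the 10 genes lie under an unadjusted edgeR p of 0.05, against 495 of 15393 genes tested there. Over all genes DESeq2 called 5 (Frmpd4, Fam83d, Htr3a, Tlr1 and Tg, named after their values were seen), against 0 with edgeR, and the other alternatives called 0. The median log2 fold change of the 10 genes was -0.12 with limma on log2(TPM + 1), where the median over all genes was 0.0437, against -0.0062 in the main fit. As each library was left out, the median of the 10 genes ranged from -0.213 to -0.131. Nfe2l2 turned to 0.016 with limma on log2(TPM + 1), which lay below that median over all genes of 0.0437. Leaving out single libraries, Nfe2l2 ranged from -0.172 to 0.063, Gclc from -0.085 to 0.176 and Gclm from -0.154 to 0.033, each crossing 0 with 2 of the 6 libraries. Hmox1 ranged from -1.386 to -0.206, Gpx1 from -0.357 to -0.085, Gpx4 from -0.211 to -0.041 and Cat from -0.215 to -0.045. Nqo1 ranged from -0.349 to -0.183, Sod1 from -0.411 to -0.233 and Sod2 from -0.225 to -0.152. Hmox1, Gpx1, Gpx4, Cat, Nqo1, Sod1 and Sod2 thus kept their sign whichever library was left out. Deviations of same-numbered libraries correlated at 0.195, 0.0749 and 0.0275 for replicates 1 to 3, and those of differently numbered libraries at -0.1865 to 0.14. The value for replicate 1 of both groups was the highest of all. These values did not settle whether the numbers mark pairs, and the main fit took the libraries as unpaired. Under an unadjusted edgeR p of 0.05 lay 616 of 15012 genes in the main fit and 1284 with the replicate block. For the 40212 transcripts these numbers were 981 and 1502. With the replicate block 0 of the 10 genes, 0 genes and 0 transcripts were called. Hmox1 was then -0.82 and the median of the 10 genes -0.168.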
